A study of Mus musculus with 6 samples.

Results

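The expression of 9 genes that mark resident tissue macrophages, or that encode a ligand of their receptors, was followed in the hearts of 6 endotoxemic mice. They were the fractalkine receptor Cx3cr1 and its ligand Cx3cl1, the transcription factor Maf, the membrane proteins Ms4a7 and Adgre1, and the uptake receptors Mrc1, Cd163, Lyve1 and Timd4. They were taken by symbol, through the transcript accession of each probe, and all 9 were found among 22815 named genes, with 13 of 56605 probes. Cx3cl1 is no macrophage marker but the ligand of Cx3cr1, made mainly by endothelium, epithelium and neurons, and Lyve1 also marks lymphatic endothelium.

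Every mouse was a male C57BL6 aged 10 weeks, starved for 16 h and injected into the peritoneum with 20 mg/kg lipopolysaccharide (LPS), the endotoxin of Gram-negative bacteria. The rhTM group (3 mice) then received recombinant human thrombomodulin, a soluble version of an endothelial surface protein that binds thrombin and speeds the activation of protein C, at 3 and 24 h after LPS. The saline group (3 mice) received saline at those times, and whole-heart RNA was taken at 30 h and hybridised to 1-colour Agilent arrays, 1 array a mouse. Both groups had been starved and given LPS, so no value below is a comparison with a healthy heart. The human protein was tested in mice, and no dose of it is given in the labels.

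Many resident macrophages of the heart settle before birth, renew themselves locally and clear dying cells and cell debris, while monocytes from the blood enter during inflammation and can take on some of the same markers. Cx3cl1 is held on the surface of endothelial cells or shed by proteases, and it binds Cx3cr1 on monocytes, macrophages and some lymphocytes. In whole-heart RNA, fewer cells of a type and less RNA per cell cannot be told apart.

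Levels are given as the log2 spot signal minus the log2 of the array's 75th percentile, and differences are rhTM minus saline on that scale with the SE of the limma fit. Of 59305 measuring spots an array, 57.1% to 62.8% stood well above background in rhTM and 54.8% to 58.9% in saline hearts. Saline 1 and 2 were on slide 1, while saline 3 was on slide 2 with all rhTM arrays, so that the within-slide difference rests on 1 saline array. The slides were scanned on different days. The line fitted to the spike-in controls had an R2 of 0.990 and 0.987 on slide 1, against 0.845 to 0.881 on slide 2. The 75th percentile signal was 732 and 671 on slide 1, against 394 to 466 on slide 2. Across genes saline 3 correlated at 0.924, 0.923 and 0.965 with rhTM 1, 2 and 3 of its slide, and at 0.942 and 0.939 with saline 1 and 2. The tissue label was borne out by 10 cardiomyocyte genes, all well above background, with a mean level of 7.46 to 8.05 in rhTM and 6.71 to 7.56 in saline hearts.

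The starts of 3 genes are shown because Cx3cr1 and Ms4a7 were called and Cx3cl1 encodes the ligand of Cx3cr1, and Ms4a7 has 2 listed starts beside its 2 probes. Each run covers 250 bases before to 50 after a RefSeq transcript start, read 5′ to 3′ along the gene on build GRCm38.p6, and capitals mark matches to the motifs named after them.
Cx3cr1, chr9:120068247-120068546, minus strand: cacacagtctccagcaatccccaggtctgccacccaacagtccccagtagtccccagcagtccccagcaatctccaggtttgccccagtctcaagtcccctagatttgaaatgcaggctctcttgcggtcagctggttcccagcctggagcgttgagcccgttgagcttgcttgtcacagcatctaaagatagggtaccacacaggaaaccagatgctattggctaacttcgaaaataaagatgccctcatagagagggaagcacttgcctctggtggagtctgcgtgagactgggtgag
Ms4a7, chr19:11334646-11334945, minus strand: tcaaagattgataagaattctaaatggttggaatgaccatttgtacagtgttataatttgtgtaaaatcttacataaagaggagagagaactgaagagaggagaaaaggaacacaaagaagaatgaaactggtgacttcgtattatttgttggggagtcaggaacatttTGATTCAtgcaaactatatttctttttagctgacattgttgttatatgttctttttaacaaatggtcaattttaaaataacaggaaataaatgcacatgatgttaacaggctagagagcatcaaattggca
Ms4a7, chr19:11336097-11336396, minus strand: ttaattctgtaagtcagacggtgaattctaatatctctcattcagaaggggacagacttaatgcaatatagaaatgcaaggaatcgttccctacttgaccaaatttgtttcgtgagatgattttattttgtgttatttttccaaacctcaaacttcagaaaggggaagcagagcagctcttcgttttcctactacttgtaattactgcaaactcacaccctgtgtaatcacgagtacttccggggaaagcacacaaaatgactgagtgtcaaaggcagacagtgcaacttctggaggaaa
Cx3cl1, chr8:94771930-94772229, plus strand: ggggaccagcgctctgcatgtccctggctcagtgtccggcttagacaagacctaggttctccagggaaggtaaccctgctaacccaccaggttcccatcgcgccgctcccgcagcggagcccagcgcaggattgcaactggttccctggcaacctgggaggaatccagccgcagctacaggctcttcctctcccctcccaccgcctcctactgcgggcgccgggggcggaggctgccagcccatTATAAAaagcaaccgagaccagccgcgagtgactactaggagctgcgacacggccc
Both strands of all starts in the RefSeq table were searched for 4 motifs. TGANTCA, the site of AP-1 factors, was found in 7.81% of 32851 starts and among these runs once, in the first of Ms4a7. TATAAA, the letters of the TATA box, was found in 13.6% of all starts and here once, in that of Cx3cl1. There the match begins at -6 from the listed transcript start. A half-site of the Maf recognition element, TGCTGA, occurs in 19.5% of starts and in none of these runs. The PU.1 motif, spelled as GAGGAAGT, occurs in 3.20% and in none of them either. The table held 7 starts of 6 of the 9 genes, and of the 3 others, those of Mrc1 and Cd163 had no match, while that of Timd4 had 2 to the Maf half-site. A match is a description of letters and says nothing of binding.

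Of the 9 genes, 8 were tested, and 3 rose in rhTM hearts: Cx3cr1, Ms4a7 and Maf. Of all 14701 genes tested, 2.75% were called higher and 2.41% lower at an adjusted p under 0.05, and none of the 8 was called lower (limma, 0 lower at an unadjusted p under 0.05). Because the 9 genes were chosen with results of these arrays known, the share of called genes among them is a description. The median difference of the 8 was 0.61, against 0.01 over all genes tested. It was 0.32 over the 7 without Cx3cr1, which passed the filter on dim probes only through the rhTM group. In 3 of the 8, again Cx3cr1, Ms4a7 and Maf, all rhTM arrays lay above all saline arrays, as they did in 17.0% of all genes. In a fit that took the slide as a block, 3.83% of genes were called higher and 1.95% lower, and none of the 8 was called, although Cx3cr1, Ms4a7 and Maf kept unadjusted p under 0.05 in that fit.

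**Figure D1:**
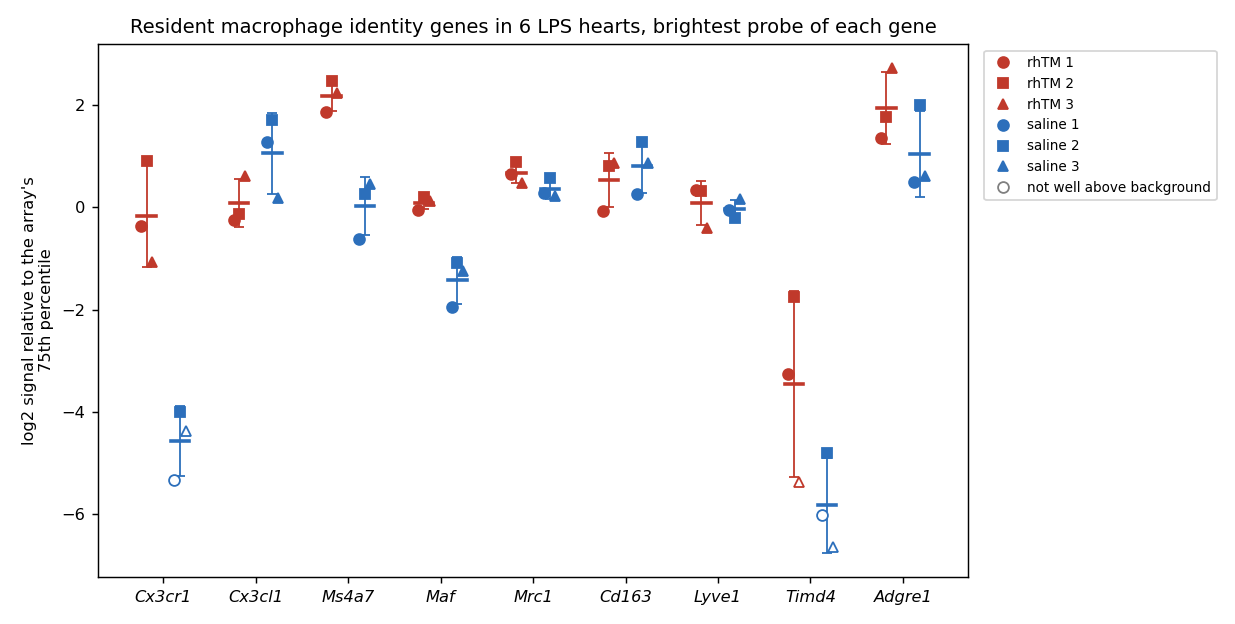
Log2 signal relative to the 75th percentile of the array (y axis) for the brightest probe of each of the 9 genes, with 3 rhTM arrays (red, left) and 3 saline arrays (blue, right), group means (bars) and SD (whiskers). Open symbols mark probes not well above background; Cx3cr1, Ms4a7 and Maf are the genes whose groups do not overlap.

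Cx3cr1, the fractalkine receptor of patrolling monocytes and resident macrophages, showed the widest gap. Its brighter probe (accession NM_009987) lay at -0.35, 0.91 and -1.07 in rhTM 1, 2 and 3, against -5.33, -4.00 and -4.38 in saline 1, 2 and 3. All rhTM hearts were high, and the gap between the lowest of them and the highest saline heart was wider than the spread within either group. In processed signal units before scaling these were 362, 876 and 196 in rhTM hearts, against 18.1, 42.1 and 19.0 in saline hearts. The difference was 4.40 ± 0.57 (21.1-fold, limma adjusted p = 0.0244, n = 3 and 3) and 4.21 against saline 3 on the same slide (adjusted p = 0.0549 when slides were blocked). The probe was well above background on 3 of 3 rhTM arrays but on 1 of 3 saline arrays, so that it passed the filter on dim probes only through the group where it is high, and the size of the fold depends on background. With normexp background correction, which adds an offset of 50, the difference was 2.23 (4.70-fold, adjusted p = 0.0305).

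The second Cx3cr1 probe was too dim to be tested. It lay at -3.79, -3.31 and -4.58 in rhTM 1, 2 and 3, against -7.06, -7.29 and -6.48 in saline 1, 2 and 3. No saline array measured it well above background, and neither did rhTM 3, so that 4 of the 6 values were at background. On means it was at least 1.91-fold higher in rhTM hearts. For that bound each saline array counted at the probe's own signal or, where higher, at the array's lowest signal clear of background.

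Cx3cl1, the membrane-bound chemokine that Cx3cr1 recognises, was not called. Its single probe lay at -0.24, -0.13 and 0.62 in rhTM 1, 2 and 3, against 1.29, 1.72 and 0.18 in saline 1, 2 and 3. The low saline value was saline 3, which shared the slide with the rhTM arrays and lay among them, while saline 1 and 2 on the other slide were higher than every rhTM heart. The difference was -0.98 ± 0.45 (limma adjusted p = 0.189, 95% interval -2.05 to 0.09), and -0.10 against saline 3. It passed without saline 3 (-1.42, adjusted p = 0.0198), when 20.5% of all genes were called higher and 19.1% lower, and with array weights (-1.55, adjusted p = 0.00062), when 31.7% were called higher and 31.2% lower. The sheddases of fractalkine, Adam10 and Adam17, differed by -0.16 ± 0.17 and -0.14 ± 0.17, and neither was called (adjusted p 0.533 and 0.594).

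Ms4a7, a membrane protein with 4 spans found in macrophages, rose in both of its probes, which carry the accessions of different transcripts. The brighter probe (NM_001276398) lay at 1.87, 2.47 and 2.23 in rhTM 1, 2 and 3, against -0.62, 0.26 and 0.45 in saline 1, 2 and 3. The dimmer probe (NM_001025610) lay at 0.15, 0.72 and 0.58 in rhTM hearts, against -2.01, -1.29 and -1.31 in saline hearts. In both probes the lowest rhTM heart was well above the highest saline heart. The brighter probe differed by 2.16 ± 0.33 (4.47-fold, limma adjusted p = 0.0307) and by 1.74 against saline 3 (adjusted p = 0.0692 when slides were blocked). In a fit of every kept probe on its own the dimmer one differed by 2.02 ± 0.28 (adjusted p = 0.0267), and by 1.79 against saline 3. Both probes were well above background on all 6 arrays.

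Maf, the leucine zipper transcription factor c-Maf of the macrophage lineage and of some T cells, rose less but with little spread among rhTM hearts. Its probe (NM_001025577) lay at -0.05, 0.20 and 0.12 in rhTM 1, 2 and 3, against -1.95, -1.09 and -1.24 in saline 1, 2 and 3. The rhTM hearts lay close together and above all saline hearts. The difference was 1.52 ± 0.27 (2.86-fold, limma adjusted p = 0.0392) and 1.33 against saline 3 (adjusted p = 0.0835 when slides were blocked).

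**Figure D2:**
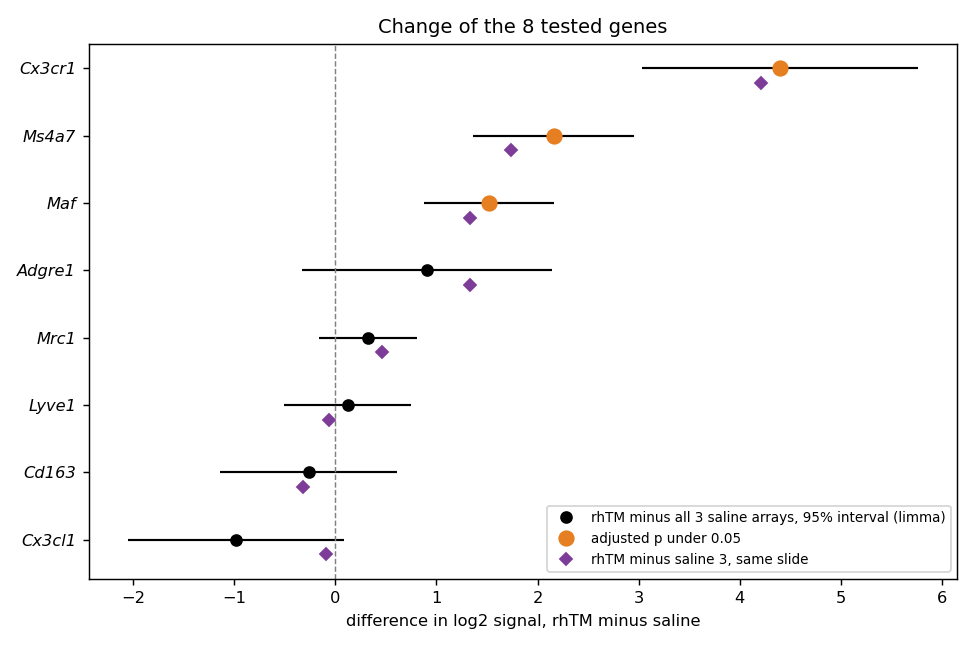
Difference in log2 signal, rhTM minus saline (x axis), for the 8 tested genes (y axis), with the 95% interval of limma (lines), calls at an adjusted p under 0.05 (orange) and the difference from saline 3 on the same slide (purple diamonds). Cx3cr1, Ms4a7 and Maf lie at 4.40, 2.16 and 1.52, and the intervals of the other 5 genes include 0.

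None of the uptake receptors Mrc1, Cd163 and Lyve1 was called. Mrc1, the mannose receptor CD206, lay at 0.66, 0.89 and 0.48 in rhTM 1, 2 and 3, against 0.29, 0.57 and 0.22 in saline 1, 2 and 3. The groups overlapped in that rhTM 3 was below saline 2, and the difference was 0.32 ± 0.20 (limma adjusted p = 0.311, 95% interval -0.17 to 0.80). It was called higher with array weights (0.45, adjusted p = 0.0230) and with the deposited value table (0.65, adjusted p = 0.0389), in which 15.0% of all genes were called higher. Cd163, the scavenger receptor for haptoglobin bound to haemoglobin, lay at -0.07, 0.81 and 0.88 in rhTM hearts, against 0.27, 1.29 and 0.86 in saline hearts. The groups interleaved, and the difference was -0.26 ± 0.37 (limma adjusted p = 0.643, 95% interval -1.14 to 0.61). Its dimmer probe, well above background on 1 of 3 rhTM and 2 of 3 saline arrays, lay at -5.69, -4.49 and -5.42 in rhTM hearts, against -4.22, -2.73 and -5.67 in saline hearts.

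Lyve1, a hyaluronan receptor, lay at 0.34, 0.33 and -0.40 in rhTM 1, 2 and 3, against -0.05, -0.21 and 0.16 in saline 1, 2 and 3. The rhTM hearts included both the highest and the lowest values, and the difference was 0.12 ± 0.26 (limma adjusted p = 0.772, 95% interval -0.51 to 0.75), with -0.07 against saline 3. With array weights it was called higher (0.41, adjusted p = 0.0344), and with the deposited value table it lay at -0.20. Of the 8 lymphatic endothelial genes, which Lyve1 also marks, none was called in either direction (limma, 0 higher and 3 lower at an unadjusted p under 0.05), with a median of -0.72, or -0.02 against saline 3. Among them Flt4, the lymphatic VEGF receptor, differed by -1.14 ± 0.26 (adjusted p = 0.0568), well above background on 1 of 3 rhTM arrays, and Reln by -1.41 ± 0.36 (adjusted p = 0.0693). Pdpn, named after its values were seen, differed by -2.14 ± 0.62 (limma adjusted p = 0.0884). It was called lower when replicate numbers were blocked (adjusted p = 0.0390).

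Adgre1, an adhesion receptor used as a general marker of mouse macrophages, lay at 1.36, 1.77 and 2.73 in rhTM 1, 2 and 3, against 0.50, 2.01 and 0.62 in saline 1, 2 and 3. Saline 2 exceeded rhTM 1 and 2, so that the groups overlapped. The difference was 0.91 ± 0.52 (limma adjusted p = 0.267, 95% interval -0.33 to 2.14) and 1.33 against saline 3. Its second probe was well above background on saline 2 alone.

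Timd4, a phosphatidylserine receptor of long-lived resident macrophages, was dim on most arrays and was not tested. It lay at -3.26, -1.75 and -5.37 in rhTM 1, 2 and 3, against -6.03, -4.82 and -6.64 in saline 1, 2 and 3. Its probe was well above background in rhTM 1 and 2 and in saline 2, and not in rhTM 3, saline 1 or saline 3. The groups overlapped, since rhTM 3 lay below saline 2. With no filter on dim probes the difference was 2.37 ± 0.94 (limma adjusted p = 0.228).

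Each gene was also set against other macrophage genes within arrays. For this, the mean level of the tested genes in a list of 20 other macrophage genes was subtracted on each array, a comparison chosen after the data were seen. Relative to that list Cx3cr1 differed by 3.87, Ms4a7 by 1.63, Maf by 0.99, Cd163 by -0.79 and Cx3cl1 by -1.51, with no overlap between the groups in any of the 5 (exact two-sided permutation p = 0.1 each, unadjusted, the smallest that 3 against 3 arrays allow). On this scale 2.85% of all genes lay higher without overlap and 28.0% lower. Within slide 2 the same values were 3.40, 0.93 and 0.52 for Cx3cr1, Ms4a7 and Maf, and -1.13 and -0.90 for Cd163 and Cx3cl1. Mrc1, Lyve1 and Adgre1 overlapped on this scale (exact two-sided permutation p 0.4 to 0.5). With 3 against 3 arrays no comparison could have passed 0.05, and the 8 exact permutation p adjusted by Benjamini-Hochberg ran between 0.16 and 0.5, so that these values are a description.

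The other macrophage genes showed no called change. Of 20 listed, 19 were tested, 13 lay higher and 6 lower, with a median of 0.29, against 0.01 over all genes. None was called by limma, with 7 higher and 0 lower at an unadjusted p under 0.05. The mean level of the list was 1.37, 1.86 and 1.69 in rhTM 1, 2 and 3, against 0.85, 1.64 and 0.83 in saline 1, 2 and 3, so that saline 2 lay within the rhTM range. The macrophage growth factor receptor Csf1r differed by 0.29 ± 0.31 and the lysosomal protein Cd68 by 0.27 ± 0.28 (adjusted p 0.542 and 0.530). The lowest p values were those of Cbr2, a carbonyl reductase (2.42 ± 0.62, limma adjusted p = 0.0701), and Aif1, the actin-bundling protein Iba1 (1.23 ± 0.35, adjusted p = 0.0836). Blocking on the replicate number, 3 of the 19 were called higher, against 2.43% of all genes called higher and 1.65% lower: Cbr2 (adjusted p = 0.0409), and Vsig4 and Trem2 (0.0391 and 0.0466), the last 2 being named after their values were seen.

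Markers of other cells were set beside these values, since monocytes, neutrophils and lymphocytes carry or bind some of the same proteins. Of 16 monocyte genes 5 lay higher and 11 lower, with a median of -0.69, and 0 were called (limma, 4 higher and 3 lower at an unadjusted p under 0.05). The 2 with the lowest p went opposite ways: Ccr2, the receptor that draws monocytes into tissue, lay at -2.81, -1.01 and -2.60 in rhTM hearts, against -6.02, -4.35 and -4.51 in saline hearts. Its difference was 2.82 ± 0.63 (limma adjusted p = 0.0535; 0.0391 blocking on the replicate number), and its probe was well above background on 1 of 3 saline arrays. Ly6c2, the surface marker of inflammatory monocytes, lay at 5.39, 5.20 and 6.23 in rhTM hearts, against 7.23, 7.12 and 6.61 in saline hearts, a difference of -1.38 ± 0.33 (adjusted p = 0.0631). In 6 of the 16 monocyte genes, Ccr2 and Ly6c2 among them, the groups did not overlap, as in 5246 of all 14701 genes tested. Blocking on the replicate number also called Vcan lower (adjusted p = 0.0391), a gene named after its values were seen. Without the block Vcan differed by -1.47 ± 0.44 (limma adjusted p = 0.0935).

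Of 9 tested neutrophil genes 1 lay higher and 8 lower, with a median of -3.40 and 1 called (limma, 0 higher and 3 lower at an unadjusted p under 0.05). The called gene was Cd177, a neutrophil surface protein, at least 2.7-fold lower in rhTM hearts (limma adjusted p = 0.0212), on whose arrays it was not well above background. Cd177 thus passed the filter on dim probes only through the saline group, where it is high. Retnlg, a resistin-like protein of granulocytes, differed by -4.66 ± 1.93 (adjusted p = 0.160; 0.0466 blocking on the replicate number). The mean level of that list was -1.91, -2.47 and 1.50 in rhTM 1, 2 and 3, against 0.47, 1.48 and 2.81 in saline 1, 2 and 3, with rhTM 3 above the first 2 saline hearts. Cardiomyocyte genes had a median of 0.68 over 10 genes, of which 1, the calcium pump regulator Pln, was called (1.35 ± 0.28, limma adjusted p = 0.0478), while the myosin chain Myh6 differed by 0.72 ± 0.20 (adjusted p = 0.0787). Vascular endothelial genes had a median of -0.21 over 12 genes with 0 called (limma, 0 higher and 2 lower at an unadjusted p under 0.05), and Cldn5, a junction protein, and Pecam1 had the lowest p (-1.17 ± 0.29 and -1.08 ± 0.36, adjusted p 0.0659 and 0.111). Fibroblast genes had a median of 0.10 over 8 tested and 0 called (limma, 1 higher and 1 lower at an unadjusted p under 0.05), with Lum at 1.22 ± 0.27 and Pdgfra at -1.10 ± 0.27 (adjusted p 0.0543 and 0.0665), and Lum was called when replicate numbers were blocked (adjusted p = 0.0431). Dendritic cell genes had a median of 0.07 over 6 tested of 10, and lymphoid genes of 0.76 over 5 tested of 12, with 0 called in either (limma, 2 higher and 1 lower, and 1 higher and 1 lower, at an unadjusted p under 0.05). Among their genes with the lowest p was Flt3, at least 1.75-fold higher in rhTM hearts (limma adjusted p = 0.105), no saline array having measured it well above background. Others were Zbtb46 and Cd4 (-0.96 ± 0.23 and 1.26 ± 0.50, limma adjusted p 0.0628 and 0.147), which differed by -0.73 and 0.13 against saline 3. In Cd4 saline 3 lay within the rhTM range. Against saline 3 on the same slide the medians were -4.00 for neutrophil, 0.70 for cardiomyocyte, -0.02 for vascular endothelial and 0.07 for fibroblast genes. Those of dendritic cell and lymphoid genes were -0.57 and 0.13. The part of all these cells in the changes of Cx3cr1, Ms4a7 and Maf was not tested.

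**Figure D3:**
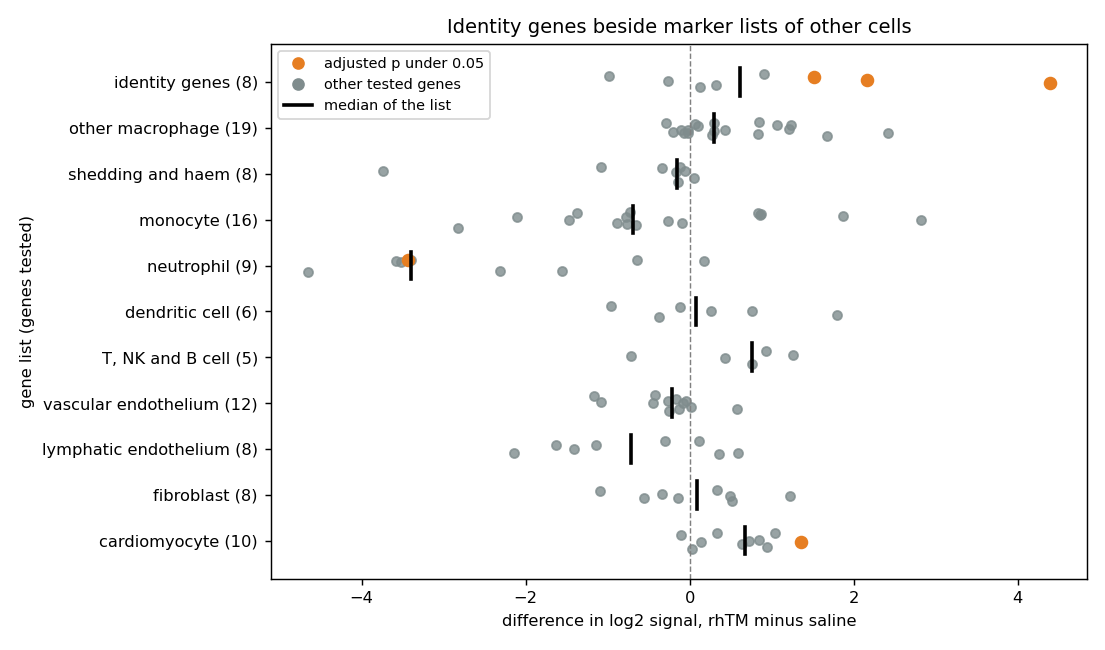
Difference in log2 signal, rhTM minus saline (x axis), for each tested gene of the identity list and of 10 lists of other cells and partners (y axis, number tested in brackets), with called genes in orange and list medians as black bars. The identity list has a median of 0.61 and 3 called genes, the other macrophage list a median of 0.29 and 0 called genes, and the neutrophil list a median of -3.40.

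Partners of Cd163 in haemoglobin clearance were read as well. Of the 8 genes for fractalkine shedding and haem handling 1 lay higher and 7 lower, with a median of -0.15, and 0 were called (limma, 0 higher and 1 lower at an unadjusted p under 0.05). Hp, the plasma protein haptoglobin that hands haemoglobin to Cd163, differed by -3.74 ± 1.52 (limma adjusted p = 0.156). Hmox1, the enzyme that opens haem, differed by -1.08 ± 0.80 (adjusted p = 0.381). Hp lay at -1.48, -2.30 and 3.76 in rhTM 1, 2 and 3, against 3.03, 3.64 and 4.53 in saline 1, 2 and 3. Hmox1 lay at 1.00, 1.37 and 3.60 in rhTM hearts, against 2.20, 2.78 and 4.23 in saline hearts. The groups overlapped in Hp and in Hmox1, since rhTM 3 lay above saline 1 and 2.

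Genes whose profile over the 6 arrays was most like that of each tested gene were found by the root-mean-square difference of log2 profiles after subtracting each gene's own mean. For Cx3cr1 they were Zan and Serpinb3b, at 0.53 and 0.55, against a profile SD of 2.53 for Cx3cr1 itself. For Ms4a7 the closest was Olfr1375, at 0.18, and for Maf they were Gpr183 and Bend6, at 0.18 and 0.20. For Cx3cl1 they were Adamts15 and Acp2, at 0.09 and 0.12, for Adgre1 Folr1 and Abcg3, both at 0.24, and for Cd163 Themis2 and Lhfpl2, at 0.12 and 0.16. For Mrc1 they were Atp5b and Iscu, at 0.06 and 0.07, and for Lyve1 Gpc2 and Ep300, at 0.03 and 0.07. These are likenesses over 6 arrays chosen among 14701 genes and are given as a description.

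When 1 array was left out, the calls of Cx3cr1, Ms4a7 and Maf went with the number of genes called over the whole array. They did not when slides were blocked, where 3.83% of all genes were called higher and none of the 3 was. Leaving out rhTM 1, rhTM 2, saline 1 or saline 2 left none of the 3 called, although the log2 differences stayed at 3.86 to 4.68 for Cx3cr1, 1.83 to 2.32 for Ms4a7 and 1.25 to 1.69 for Maf. Of all genes, 0% were then called higher without rhTM 1, 0.0136% without rhTM 2, 0.0136% without saline 1 and 0.374% without saline 2. Without saline 3 all 3 were called, among 20.5% of all genes called higher, and without rhTM 3 Cx3cr1 and Ms4a7 were, among 2.60%.

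**Figure D4:**
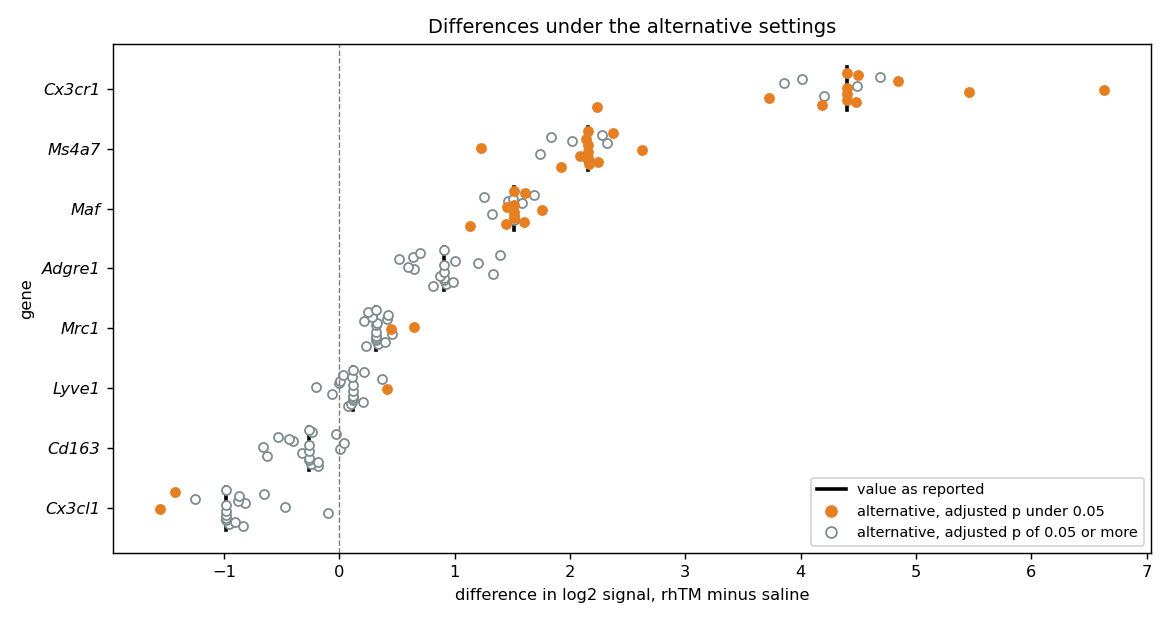
Difference in log2 signal, rhTM minus saline (x axis), of the 8 tested genes (y axis) as reported (black bars) and under the alternatives (points), with those at an adjusted p under 0.05 in orange. Cx3cr1 stays between 2.23 and 6.63, Ms4a7 between 1.23 and 2.62 and Maf between 1.14 and 1.76, while Cd163 and Lyve1 have points on both sides of 0.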

How the data were processed

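Scanner files of 6 arrays were used, 1 per mouse. Per the file headers, the deposited intensity values were extracted by Feature Extraction 10.7.3.1 (Agilent) with an array grid of mm9, and the processed signal is background-corrected within its array, whereas version 9.1 is named per the submitters' processing notes. The deposited log2 value table served only as an alternative; its centring is not stated in any source here, and its column medians were -0.16 to 0.10. Controls were dropped, as were 368 of 56605 probes flagged as outliers, spots of a probe were averaged, and log2 signals were taken relative to the 75th percentile of each array. Through unversioned accessions, 32789 of the probes left were named from a RefSeq table of GRCm38.p6 and 23448 were not. Each of 22815 genes was represented by its brightest probe, and 14701 well above background on all 3 arrays of a group were tested with limma 3.58.1 in R 4.3.3 (group as the only term, Benjamini-Hochberg over all genes), after a check on simulated data. The normexp alternative used the median spot signal, since the files hold no mean.

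The members, lists and tests were chosen with earlier results of these data known. Named beside the members are, of each list, the 2 genes with the lowest p and any called, other genes given for a stated role (Adam10, Adam17, Csf1r, Cd68) being chosen after their values were seen, and the 2 genes of most similar profile; some genes that this rule takes are not reported here. Precision is limited by the number of arrays. The labels name separate mice. Replicate numbers 1 to 3 recur in both groups of the labels. After subtraction of group means, arrays 1, 2 and 3 of the groups correlated at 0.319, 0.235 and 0.372 over genes, and other pairs at -0.387 to 0.314. Arrays of the same number were not always the closest, as rhTM 2 correlated at 0.314 with saline 1 and at 0.235 with saline 2. No litter or day is stated for the numbers. A pairing of the mice is therefore not established, and the block on replicate number is an alternative only.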

Additional observations from a re-analysis of the deposited data

How the results depend on the processing

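Against 3 of the 8 tested identity genes called higher and 0 lower, 1 was called higher with no filter on dim probes (Cx3cr1), 0 when slides were blocked and 5 under array weights, which also called 1 lower (Cx3cl1) and added Mrc1 and Lyve1; the deposited table called 4 higher, Mrc1 being added. Leaving out 1 array at a time gave 0 to 3 higher and 0 to 1 lower; the 0 arose without rhTM 1, rhTM 2, saline 1 or saline 2 (limma, 3 to 4 at an unadjusted p under 0.05). Over all genes, 405 were called higher and 355 lower, against 248 higher with normexp, 132 and 19 with no filter, 4663 and 4581 with array weights and 2205 and 2314 with the deposited table. Without 1 array these were 0 to 3007 and 0 to 2808. Centring on the median of the genes tested made 64.3% of all calls higher, against 53.3%. With the replicate number as a block 3 identity genes were again called higher and 0 lower (Cx3cr1, Ms4a7 and Maf, adjusted p = 0.0390, 0.0390 and 0.0433), 357 and 242 genes in all. Among the named genes of the lists that block changed no call other than those of Cbr2, Vsig4, Trem2, Ccr2, Vcan, Retnlg, Pdpn and Lum. None of these genes was called when slides were blocked. Directions turned for genes without a call: Cd163 was 0.0045 with array weights and 0.039 without rhTM 1, and Lyve1 was -0.066 when slides were blocked, -0.20 with the deposited table and -0.0043 without rhTM 1. Without 1 array, Cd163 ran between -0.53 and 0.039 and Lyve1 between -0.0043 and 0.37. Cx3cr1, Ms4a7 and Maf stayed higher in all alternatives that gave a value; Cx3cr1 gives none among probes well above background on all 6 arrays. Cx3cr1 was 5.46 with array weights and 6.63 with the deposited table, and Ms4a7 1.23 with the latter. The causes were not tested. Signal over background limits Timd4, the dimmer probes and the size of the Cx3cr1 change.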
